A study of Mus musculus with 6 samples.

Results

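The genes examined here encode the machinery that docks, primes, fuses and recycles synaptic vesicles, together with the subunits and inhibitors of CaMKII. They comprised 41 genes, chosen by name, out of 27578 named genes on the array, and every probe that carried one of these names was taken, which gave 68 of 39429 probes. The brains were those of male C57BL/6N-background mice. One group of 3 arrays was labelled Pla2g2e-/- sham (called knockout here) and the other group of 3 arrays wild-type sham. Pla2g2e encodes a secreted phospholipase A2, and neither the deleted stretch nor any restriction to a cell type is stated in the labels. All 6 samples carry the word sham in their titles, but the same samples have a treatment note on transient cerebral artery occlusion, and the labels do not settle which holds. Age and the part of the brain taken were not given in the sources used here. Separate animals are not stated for the samples of a group, and the p-values therefore cover only sample-to-sample spread, part or all of which may be technical.

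At a synapse, the SNARE proteins of the vesicle and of the plasma membrane zip together to fuse the 2 membranes, calcium bound to synaptotagmin triggers the fusion, and complexin holds and assists the SNARE complex. Active zone scaffolds and priming factors place vesicles at the release site, and dynamin, amphiphysin and synaptojanin retrieve the membrane afterwards. CaMKII is a calcium and calmodulin dependent kinase that is abundant in forebrain synapses, where it phosphorylates synapsin among other proteins and takes part in synaptic plasticity.

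Levels below are log2 processed intensities relative to the 75th percentile of the same array, so that 0 is that percentile and a difference of 1 is a doubling. Of the 43020 non-control spots, between 82.0% and 85.3% were well above background on each array. Precision is limited by there being 3 arrays in a group. Knockout 1 and the 3 wild-type arrays shared 1 slide, and knockout 2 and 3 lay on a second slide. On 64 of the 68 probes the spots were well above background on all 6 arrays. The probe of Rab3a was not tested because its spots on knockout 2 and 3 were marked as outliers, 1 probe of Syn3 was below background on every array, and the values of Cplx1 and Syn1 on knockout 3 were dropped as outlier spots. This left 40 genes and 66 probes with a test. In bulk tissue, fewer neurons and less RNA per neuron cannot be told apart.

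The 2 genotypes differed little in these genes at the brightest tested probe of each, which stands for the gene here. The transcript of Unc13c, a priming factor of the Munc13 family known mainly from cerebellar granule cells, was 1.47-fold lower in knockout, and the differences of the other 39 tested genes lay between -0.25 (Camk2d) and 0.29 (Sv2c). The median difference over the members was 0.051, against -0.014 over all 22578 genes tested. For 33 of the 40 genes the 95% interval of the difference lay inside a 1.5-fold change in either direction, and for 29 it lay inside a 1.3-fold change. The exceptions to the 1.5-fold bound were Vamp1, Cplx1, Syt2, Sv2c, Unc13c, Camk2d and Camk2n1. Less bright probes of Nsf and Syn3, described further below, differed by -0.63 and -0.61.

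In limma with Benjamini-Hochberg adjustment over all genes, 0 of 40 members passed, where 0% of all genes passed, and the smallest adjusted p of a member was 0.341. At an unadjusted p under 0.05 there was 1 member, Unc13c, or 2.5%, where 12.4% of all genes had such a p, 3.1% higher and 9.35% lower in knockout. The knockout mean was the higher in 27 members and the lower in 13, where 46.3% of all genes were higher. The groups did not overlap in 6 members (15%), 5 of them higher in knockout and 1 lower, where 19.9% of all genes had non-overlapping groups, 7.73% higher and 12.2% lower. An absolute difference of at least 0.3 was found in 1 member, where the share over all genes was 19.6%. The shares at an unadjusted p under 0.05, with any non-overlap and with a difference of at least 0.3 lay below those over all genes, while the shares with a higher knockout mean (67.5%) and with non-overlapping higher knockout values (12.5%) lay above them.

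**Figure D1:**
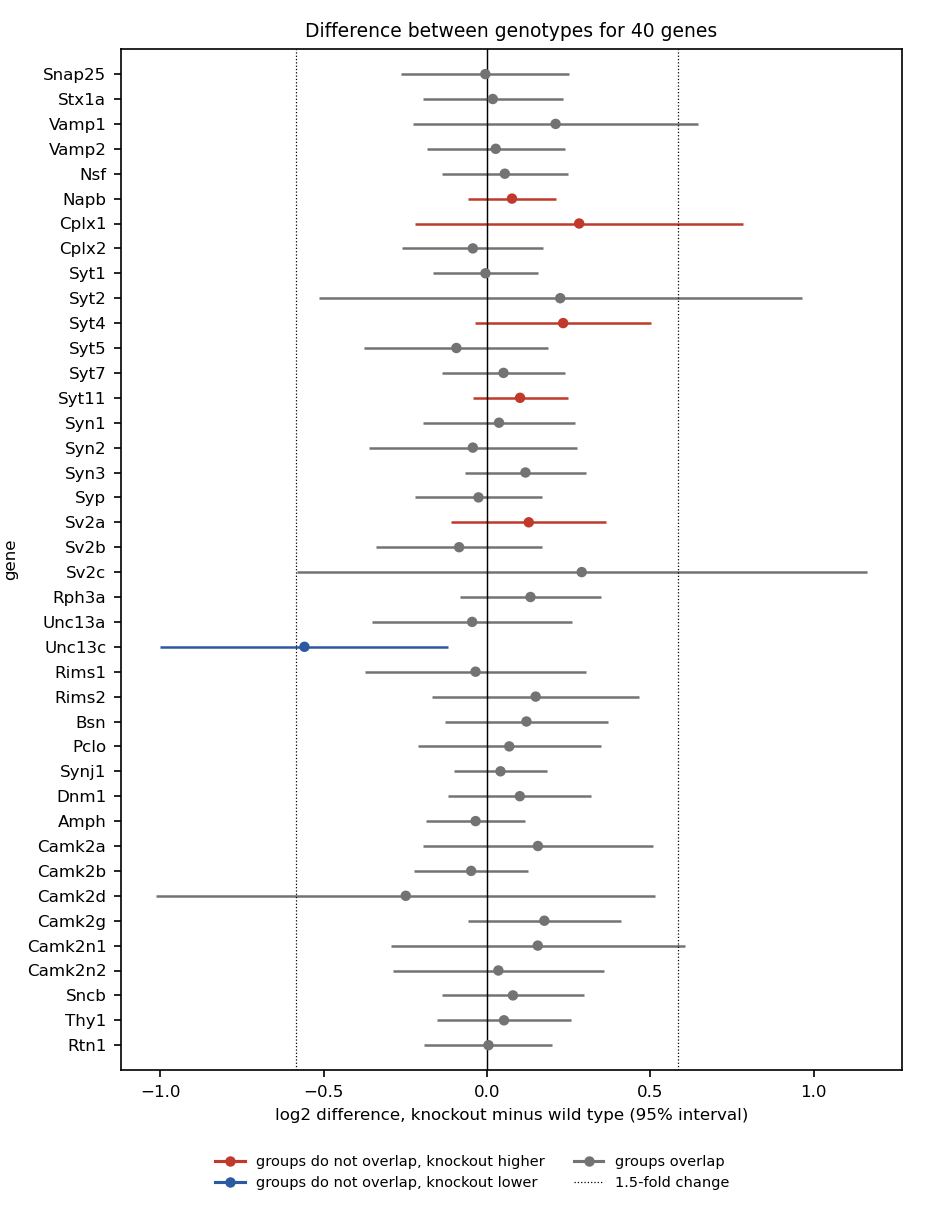
Log2 difference between knockout and wild type for the 40 tested genes, each at its brightest tested probe and ordered by role, with the 95% interval as a line (x axis, log2 units) and dotted lines at a 1.5-fold change. The interval of Unc13c, whose upper end is -0.12, is the only 1 of the 40 that does not cross 0, and it is not adjusted for the number of genes.

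Unc13c was examined first. It read -1.43, -1.31 and -1.58 on knockout arrays 1, 2 and 3, against -1.25, -0.81 and -0.59 on wild-type arrays 1, 2 and 3. All 3 knockout values lay below all 3 wild-type values, and the closest pair was knockout 2 and wild-type 1. The difference was -0.56 ± 0.18 (SE), with an adjusted p of 0.341 in limma. It was -0.54 on the slide that holds both genotypes, with 1 knockout array there, and -0.41 without wild-type 3. After median centring it was -0.44 and the groups overlapped. Its only probe lies on the minus strand of chromosome 9 at 73781310 to 73781369 in mm9, the build of the file headers, and the first 30 of its 60 bases are shown because the difference rests on this probe alone. Gene structure in mm9 was not used here, so the exon under a probe is not given.
Unc13c: ggccagtctctttaagagcttgattttagc

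Of 11 listed markers of the cerebellum and hindbrain, 6 were well above background on all arrays, and all 6 had a lower mean in knockout, with a median difference of -0.38. The largest of these was that of Pcp2, a Purkinje cell gene, with -0.999. None of the 6 passed the adjusted test in limma (0 called). Summed on the linear scale, the 8 tested markers stood between 3.57 and 3.65 on the knockout arrays and between 3.42 and 6.81 on the wild-type arrays. The brightest of them, Zic1 and Calb1, made up most of each sum, so that it says little about the dimmer markers. Cbln3 and Hoxa5 were not well above background on any array, Hoxb5 was so on at most 3 arrays, and none of them was tested. Gabra6, a granule cell GABA receptor subunit, and Slc6a5, a glycine transporter, were above it on 1 of 3 knockout arrays and on all 3 wild-type arrays. They thus entered the test through wild type, and no size is given for them. The medians of the 8 markers by array include Gabra6 and Slc6a5, and they are only drawn. Pcp2 read -2.73, -2.85 and -2.79 in knockout, against -1.39, -2.38 and -1.61 in wild type. Zic1 read 0.45, 0.56 and 0.74 in knockout, against 1.23, 0.51 and 1.82 in wild type, with overlapping groups. The part of these markers in the Unc13c difference was not tested.

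The other active zone and priming genes differed less than their spread. Unc13a, the main Munc13 of forebrain synapses, had differences of -0.046 and 0.052 at its 2 probes. Its representative probe read -2.04, -1.58 and -1.81 in knockout, against -1.82, -1.78 and -1.69 in wild type, so that the knockout values spanned the wild-type range. Rims1 and Rims2, scaffolds that bind Rab3 and tether vesicles to calcium channels, differed by -0.035 ± 0.138 and 0.15 ± 0.13 (SE). Bassoon (Bsn) and piccolo (Pclo), the large scaffolds of the active zone, differed by 0.12 ± 0.10 and 0.068 ± 0.114. Both were highest on knockout 2, with 3.75 for Bsn and 3.70 for Pclo, and all 4 probes of Pclo differed in the same direction, by 0.057 to 0.16.

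At their representative probes Snap25, Stx1a and Vamp2 differed by less than 0.03, and Vamp1 by more. Snap25, the plasma membrane SNARE of neurons, read 5.50, 5.52 and 5.46 in knockout, against 5.55, 5.66 and 5.29 in wild type. The knockout values lay inside the wild-type range, and the difference was -0.0054 ± 0.105 (SE). Its partner Stx1a differed by 0.017 ± 0.087, and Vamp2, the vesicle SNARE of most forebrain synapses, by 0.026 ± 0.086 at its representative probe. Vamp1, the related vesicle SNARE known mainly from spinal cord and brainstem neurons, differed by 0.21 ± 0.18, with a 95% interval from -0.23 to 0.65. Nsf, the ATPase that takes spent SNARE complexes apart, differed by 0.054 ± 0.079 at its representative probe.

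Napb encodes beta-SNAP, the brain adaptor of that ATPase. It read 4.03, 4.06 and 4.07 in knockout, against 3.96, 3.98 and 3.99 in wild type. The groups did not overlap, but the difference of 0.076 ± 0.055 (SE) was small and did not pass (adjusted p = 0.589 in limma). The second probe of Napb differed by 0.12 with overlapping groups.

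Among the complexins, Cplx1 read 5.04 and 5.08 on knockout 1 and 2, against 4.95, 4.96 and 4.42 in wild type. Its difference of 0.28 ± 0.19 (SE, with knockout 3 dropped) was 0.10 without wild-type 3. With the dropped spot kept, knockout 3 read 4.65, the groups overlapped and the difference was 0.15. Cplx2, the main complexin of excitatory forebrain neurons, read 5.67, 5.88 and 5.74 in knockout, against 5.72, 5.78 and 5.92 in wild type. The groups overlapped, and it differed by -0.044 at this probe and by -0.070 to 0.099 at the 3 other probes.

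Synaptotagmins are the calcium sensors of release. Syt1, the fast sensor of forebrain synapses, read 5.82, 5.94 and 5.79 in knockout, against 5.86, 5.84 and 5.86 in wild type. The knockout arrays lay on both sides of the wild-type values, and the difference was -0.005 ± 0.065 (SE). Syt4, which lacks the calcium coordination of Syt1 in its first C2 domain and is also known as an activity-regulated gene, read 1.66, 1.62 and 1.72 in knockout, against 1.46, 1.61 and 1.22 in wild type. The groups were separate by less than 0.01, between knockout 2 and wild-type 2, and the difference was 0.23 ± 0.11 (adjusted p = 0.440 in limma), or 0.13 without wild-type 3. Syt11, a synaptotagmin that does not bind calcium, read 5.15, 5.22 and 5.18 in knockout, against 5.12, 5.04 and 5.10 in wild type. The 3 knockout values were the highest of the 6, and the difference was 0.10 ± 0.06 (adjusted p = 0.517 in limma). Syt5 and Syt7 differed by -0.094 and 0.050, with groups that overlapped.

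The synapsins coat vesicles and hold them in the reserve pool. Syn1 read 4.86 and 5.06 on knockout 1 and 2, against 4.94, 4.93 and 4.90 in wild type. The 2 knockout values lay on either side of the wild-type range, and the difference was 0.036 ± 0.090 (SE, with knockout 3 dropped). With the dropped spot kept, knockout 3 read 4.70 and the difference was -0.049. Syn2 differed by -0.044 ± 0.129, and Syn3 by 0.12 ± 0.08 at its representative probe.

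Among proteins of the vesicle membrane, synaptophysin (Syp) read 4.80, 4.89 and 4.77 in knockout, against 4.73, 4.93 and 4.88 in wild type. All knockout values lay inside the wild-type range, with a difference of -0.026 ± 0.079 (SE). Sv2a, the vesicle glycoprotein that binds the drug levetiracetam, read 2.73, 2.79 and 2.75 in knockout, against 2.73, 2.72 and 2.44 in wild type. Its groups were separate by less than 0.01, between knockout 1 and wild-type 1. The difference of 0.13 ± 0.10 was 0.031 without wild-type 3, and Sv2b differed by -0.086 ± 0.103. Rab3a encodes the small GTPase of the vesicle. Its spots were unmarked on knockout 1, with 6.00, and on all wild-type arrays, with 6.13, 6.21 and 5.95, so that knockout 1 lay inside the wild-type range. The marked spots on knockout 2 and 3 read 5.76 and 5.597. With them kept the difference was -0.31 ± 0.13 (unadjusted p = 0.0487, adjusted p = 0.398 in limma), a value that rests on these 2 spots. Rph3a, an effector of Rab3, differed by 0.13 ± 0.09.

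Of the recycling genes, Dnm1 (dynamin 1, which cuts vesicles from the membrane) differed by 0.10 ± 0.09 (SE), Synj1 (synaptojanin 1, which helps to remove the clathrin coat) by 0.041 ± 0.058 and Amph (amphiphysin) by -0.035 ± 0.061. The 3 remaining neuronal genes were beta-synuclein (Sncb), the surface glycoprotein gene Thy1 and the reticulon Rtn1, with differences of 0.079, 0.052 and 0.0042. In all 6 of these genes the groups overlapped.

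The 4 CaMKII subunits showed no shared direction. Camk2a, the alpha subunit that dominates in forebrain excitatory neurons, read 3.53, 3.94 and 3.62 in knockout, against 3.67, 3.63 and 3.34 in wild type. Knockout 2 was the highest of the 6 arrays, while knockout 1 lay inside the wild-type range. The difference was 0.16 ± 0.14 (SE) at this probe, and -0.034 and -0.26 at the 2 other probes. It was -0.0088 on the slide that holds both genotypes and 0.052 without wild-type 3. Camk2b and Camk2g, the beta and gamma subunits, differed by -0.049 ± 0.071 and 0.18 ± 0.10. Camk2n1 and Camk2n2 encode small proteins that inhibit the kinase, and they differed by 0.16 ± 0.18 and 0.035 ± 0.131. Both were lowest on wild-type 2, where they read 4.54 and 4.55, and without it the differences of Camk2n1 and Camk2n2 were -0.033 and -0.105.

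**Figure D2:**
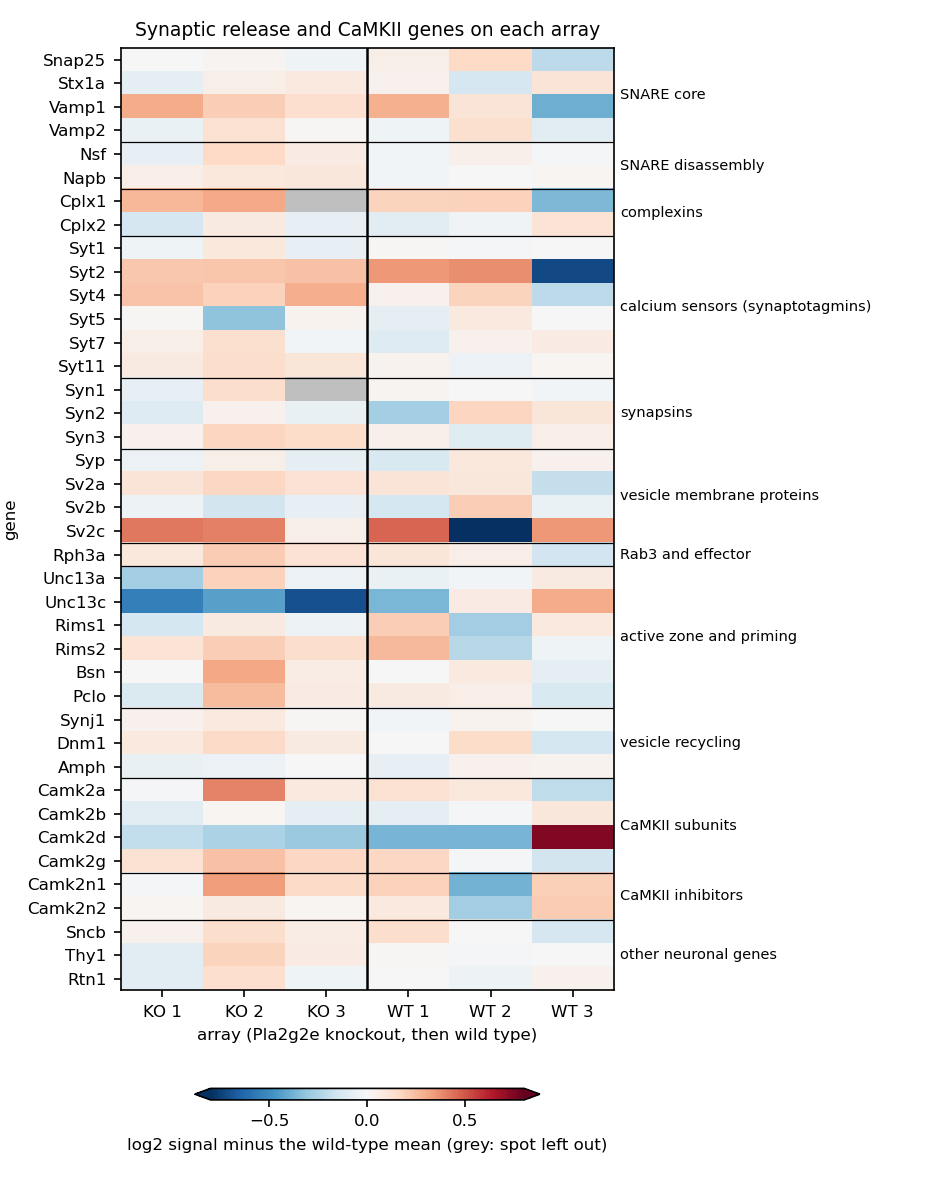
Each of the 40 tested genes on each array, as log2 signal minus the wild-type mean (colour), with knockout arrays left of wild-type arrays and genes grouped by role. Unc13c is blue on all 3 knockout arrays and on wild-type 1, and the strongest colours otherwise sit in single wild-type arrays, in Camk2d and Syt2 on wild-type 3 and in Sv2c on wild-type 2.

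The spread was larger between wild-type arrays than between knockout arrays. The median SD over the members was 0.073 in knockout and 0.129 in wild type, against 0.091 and 0.133 over all genes. No member on a knockout array departed by 0.5 or more from the mean of the other two knockout arrays, among the 38 with all values, where the shares over all genes were 8.79%, 5.67% and 4.89% on knockout 1, 2 and 3. On wild-type 1, 2 and 3 there were 4, 4 and 5 such members of 40 (10%, 10% and 12.5%), where the shares over all genes were 6.22%, 10.1% and 12.6%. Those on wild-type 3 were Camk2d, Sv2c, Syt2, Vamp1 and Cplx1.

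Camk2d, the delta subunit of CaMKII, read 1.93, 1.88 and 1.83 in knockout, against 1.76, 1.76 and 2.87 in wild type. Wild-type 3 was 1.11 above the mean of the other two wild-type arrays, and all 4 probes of the gene were highest there. The difference of -0.25 ± 0.31 (SE) was 0.12 without wild-type 3, with knockout then higher and the groups apart. Syt2, the fast calcium sensor of brainstem, cerebellar and parvalbumin-positive neurons, read -2.35, -2.34 and -2.33 in knockout, against -2.22, -2.19 and -3.29 in wild type. Wild-type 3 was 1.08 below the other two wild-type arrays, and without it the difference of 0.22 became -0.14. Vamp1 read 2.55, 2.45 and 2.39 in knockout, against 2.54, 2.35 and 1.86 in wild type, and without wild-type 3 its difference of 0.21 became 0.016. Cplx1, given above, had the same low value on wild-type 3.

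Marker genes of brain regions moved on the same array. All 14 striatum markers were lower in knockout, with a median difference of -0.60 and 1 of 14 lower at an unadjusted p under 0.05, where 9.35% of all genes were, and 0 passed the adjusted test in limma. Relative to the wild-type mean their median was -0.58, -0.51 and -0.70 on knockout 1, 2 and 3, and -0.24, -0.61 and 0.90 on wild-type 1, 2 and 3. Their summed linear level was 49.1 to 58.1 on the knockout arrays and 46.7 to 113 on the wild-type arrays, with 113 on wild-type 3. Adora2a, Rgs9 and Drd1, a receptor and a signalling regulator of striatal projection neurons and the D1 dopamine receptor, had the largest differences of the list, with -1.66, -1.08 and -1.01. Of 8 GABAergic interneuron markers, 6 were higher and 2 lower in knockout. Pvalb, the marker of the fast-spiking class, read 3.74, 3.89 and 3.65 in knockout, against 3.80, 3.83 and 2.90 in wild type, with its low value on wild-type 3. Others of that list were mixed on wild-type 3. Gad1 and Npy were the lowest of the wild-type arrays there, with 2.93 and 2.60, and Gad2 and Sst the highest, with 2.22 and 4.06. Vip, Lhx6 and Slc32a1 lay between the other wild-type arrays, and the median of the list on wild-type 3 was -0.055. Nefh, the heavy neurofilament of large projection axons and 1 of the neuron markers, read 3.69, 3.78 and 3.70 in knockout, against 3.62, 3.67 and 2.86 in wild type. Snhg11, of the same list, was high on wild-type 3, with 4.39 against 3.79 and 3.76 on wild-type 1 and 2. The median of the neuron markers on wild-type 3 was -0.020. Other tissue lists differed in direction. Lower in knockout were 6 of 6 choroid plexus markers, 8 of 8 of meninges and fibroblasts, 10 of 11 of thalamus and hypothalamus and 7 of 8 of oligodendrocytes. Higher in knockout were 6 of 9 hippocampus, 5 of 10 neocortex, 4 of 8 astrocyte, 3 of 6 endothelium and 4 of 7 microglia markers, where 46.3% of all genes were higher, and 0 of all these passed the adjusted test in limma. At an unadjusted p under 0.05 in limma, 3 hippocampus markers and 1 oligodendrocyte marker were higher, where 3.1% of all genes were. Lower at that p were 3 markers of thalamus and hypothalamus, and 1 each of choroid plexus, of meninges and fibroblasts and of neocortex, where 9.35% of all genes were. The part of regional tissue in the values of Camk2d, Syt2, Vamp1 and Cplx1 was not tested.

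**Figure D3:**
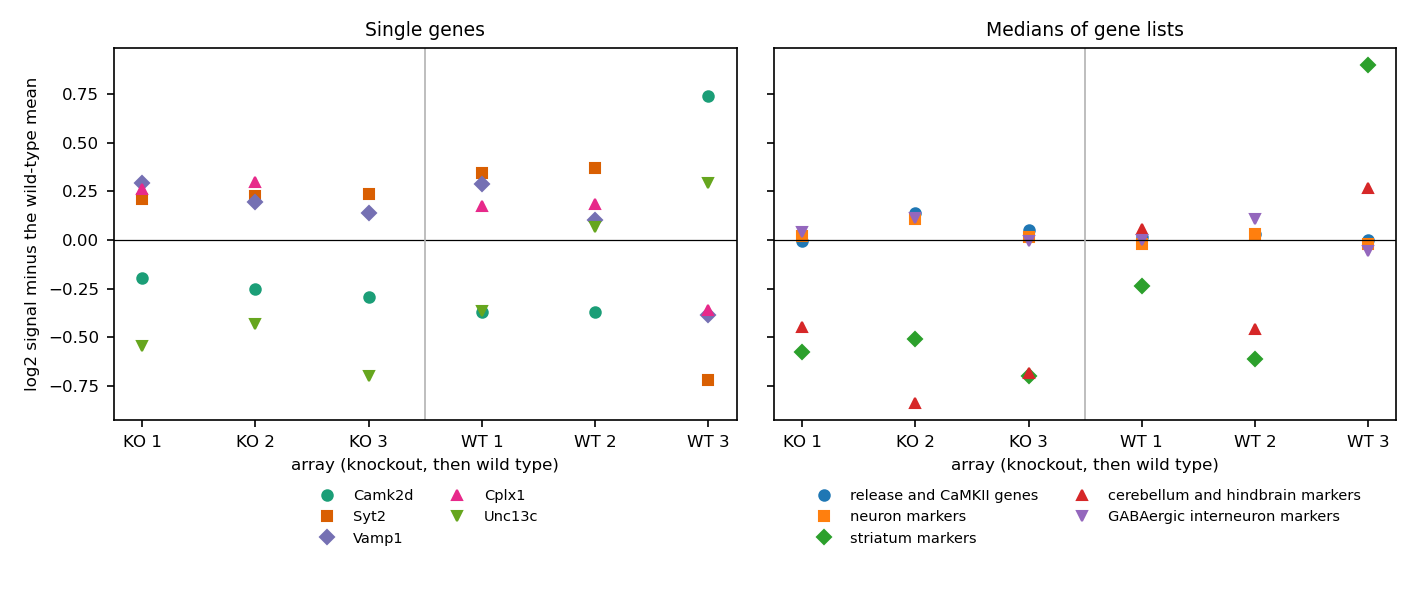
Log2 signal minus the wild-type mean (y axis) on each array (x axis, knockout then wild type) for 5 single genes on the left and for the medians of 5 gene lists on the right. The cerebellum and hindbrain medians include Gabra6 and Slc6a5, which entered the test through wild type. On wild-type 3, Camk2d and the striatum markers are high while Syt2, Vamp1 and Cplx1 are low, and the medians of the release genes and of the neuron markers stay within 0.14 of the wild-type mean on all 6 arrays.

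As a list the members were slightly higher on knockout 2 and, by less, on knockout 3, which are the 2 arrays of the second slide. Relative to the wild-type mean the median of the members was -0.0072, 0.14 and 0.051 on knockout 1, 2 and 3, and 0.016, 0.033 and -0.0024 on wild-type 1, 2 and 3. Of the 38 members with a value on every array, 17, 33 and 25 lay above their wild-type mean on knockout 1, 2 and 3, where the shares over all genes were 44.4%, 49.7% and 44.9%. Knockout 2 was the highest of the 3 knockout arrays in 28 of these 38 members, where the share over all genes was 40.4%. On the slide that holds both genotypes, 18 of 41 members were higher on knockout 1 than the wild-type mean and 23 lower, and the median was -0.0088. The neuron markers, which check that neurons were present on every array, had medians of 0.020, 0.11 and 0.017 on knockout 1, 2 and 3. Of these 15 markers 10 were higher and 5 lower in knockout, where 46.3% of all genes were higher. At an unadjusted p under 0.05 in limma 3 were higher and 0 lower, where the shares over all genes were 3.1% and 9.35%. The groups did not overlap in 4 that were higher and 0 that were lower, where the shares over all genes were 7.73% and 12.2%. None passed the adjusted test (0 called). The largest differences were those of the neuronal RNA Snhg11, with -0.35, and of Nefh and Nefm, the heavy and medium neurofilament genes, with 0.34 and 0.28.

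Some genes had probes that disagreed. Of 17 genes with several tested probes, 7 had probes that differed in sign (Camk2a, Cplx2, Nsf, Sv2c, Syn3, Unc13a and Vamp2). Of the 66 tested probes 0 were called by limma after adjustment, where 0% of all probes were. At an unadjusted p under 0.05 there were 3 probes, where 12.1% of all probes had such a p, 3.06% higher and 9.03% lower in knockout. These were the probe of Unc13c and a second probe each of Nsf and Syn3. The groups did not overlap in 5 probes that were higher and 4 that were lower in knockout, where 19.4% of all probes had non-overlapping groups, 7.47% higher and 11.9% lower. Of the 26 tested probes that did not stand for a gene 10 were higher and 16 lower, where 46.8% of all probes were higher.

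For Nsf, Syn3 and Vamp2 the groups overlapped at the representative probe, while another probe of the same gene, assigned to a different transcript, was lower on all 3 knockout arrays. In the following this is called the second probe. The second probe of Nsf read -2.33, -2.55 and -2.24 in knockout, against -1.78, -2.10 and -1.34 in wild type, with a difference of -0.63 ± 0.20 (SE, adjusted p = 0.343 in limma over all probes). The second probe of Syn3 read -4.66, -4.28 and -4.59 in knockout, against -4.11, -4.11 and -3.49 in wild type, with a difference of -0.61 ± 0.20 (adjusted p = 0.359 in limma over all probes). The second probe of Vamp2 read -5.66, -5.85 and -6.20 in knockout, against -5.61, -5.59 and -5.53 in wild type, and its difference of -0.33 was -0.081 on the slide that holds both genotypes, -0.14 after normexp background correction and -0.17 after quantile normalization. On the shared slide the differences of the Nsf and Syn3 second probes were -0.59 and -0.76, each with 1 knockout array. They were -0.59 and -0.44 after normexp background correction, and -0.59 and -0.47 after quantile normalization. The remaining tested probe of Syn3 differed by -0.051, with overlapping groups. None of these probes was called under any setting tried.

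The first 30 of the 60 bases of these 2 probes of each gene are shown because their readings differed. The bases run 5′ to 3′ and come from the deposited probe sequences. Each second probe was also dimmer than the representative probe, and the parts of the stretch measured and of low signal were not tested. All positions are in mm9.
Nsf, representative probe, chr11:103683921-103683980, minus strand: ccacttggtagatgccgttaaaaccttatg
Nsf, second probe, chr11:103770740-103770799, minus strand: atggcagtgacatacttcttatctggaaga
Syn3, representative probe, chr10:85518277-85518336, minus strand: gccaaggctgagacaatccgcaacctgagg
Syn3, second probe, chr10:85586568-85586627, minus strand: tccacatacatgtaaatgcatgtgcatacc
Vamp2, representative probe, chr11:68905527-68905586, plus strand: agtgtgagagagaaagcaagctatttcctt
Vamp2, second probe, chr11:68903917-68903976, plus strand: attaaaggttttatgcccctttgtccagcc

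Sv2c, the vesicle glycoprotein of basal ganglia and brainstem neurons, also had probes of both signs. Its representative probe read -4.49, -4.51 and -4.87 in knockout, against -4.45, -5.73 and -4.57 in wild type, and its difference of 0.29 ± 0.36 (SE) was -0.12 without wild-type 2, 0.099 after normexp background correction and -0.063 over the mean of its probes. The 2 other probes differed by -0.16 and -0.32, with -5.92 and -5.61 on wild-type 2, which was then not set apart from the other arrays.

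**Figure D4:**
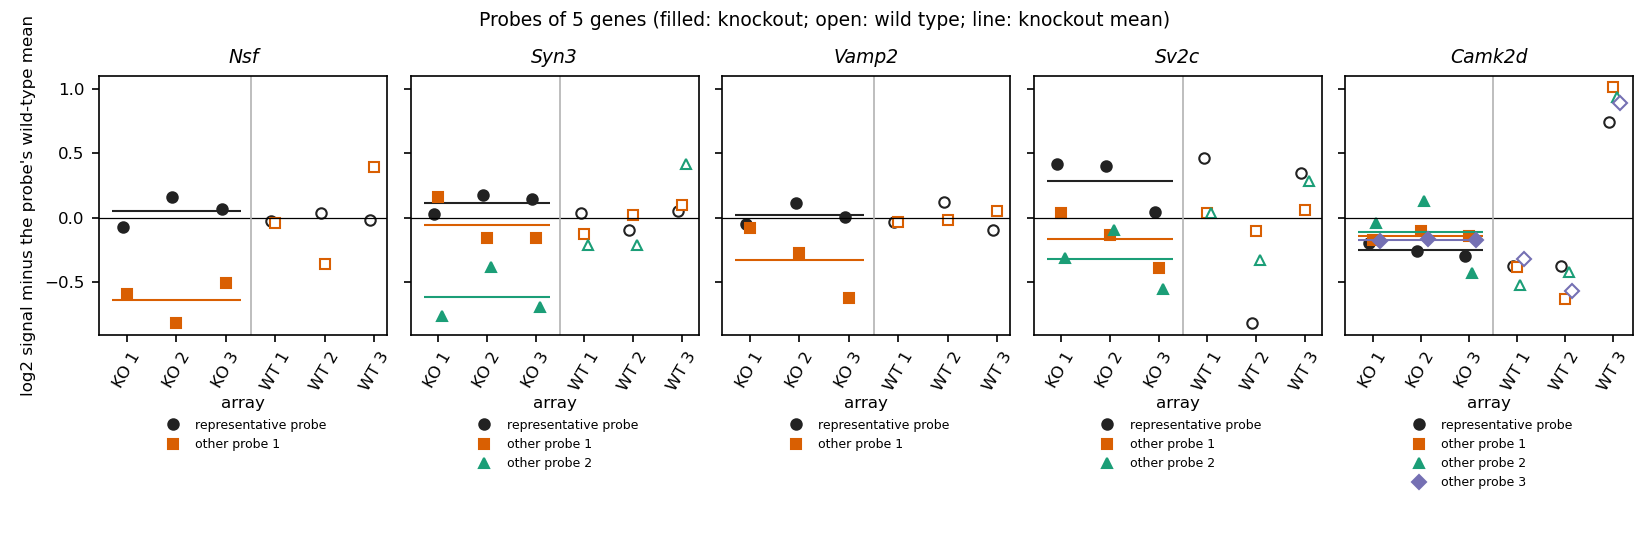
Every tested probe of Nsf, Syn3, Vamp2, Sv2c and Camk2d on each array, as log2 signal minus that probe's wild-type mean (y axis), with knockout arrays (filled) left of wild-type arrays (open) and a line at the knockout mean. For Nsf, Syn3 and Vamp2 one of the probes lies below its wild-type values on all 3 knockout arrays while the representative probe does not, and all 4 probes of Camk2d are high on wild-type 3.

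Further genes of the same pathways were taken from 6 lists of 124 genes in all, of which 124 were tested. Of these, 68 were higher and 56 lower in knockout, with a median difference of 0.012, and none of the 124 was called by limma (0 adjusted). At an unadjusted p under 0.05 there were 4 higher and 7 lower genes, together 8.87%, where 12.4% of all genes had such a p. Non-overlapping groups were found for 9 higher and 8 lower genes, together 13.7%, where the share over all genes was 19.9%.

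The SNARE and SNARE-binding list had 15 higher and 8 lower genes, with a median of 0.039. Its largest differences were those of Cplx3, a complexin of retinal ribbon synapses and of some cortical neurons, with -0.65 ± 0.16 (SE, adjusted p = 0.282 in limma), Stxbp6 (amisyn), with 0.31 ± 0.18, and Stx2, with -0.22 ± 0.07. Cplx3 read -1.58, -2.05 and -1.82 in knockout, against -1.19, -0.93 and -1.37 in wild type, and the groups did not overlap. The active zone and priming list had 10 higher and 9 lower genes, led by Rims3, Erc2 and Doc2b with 0.32, -0.29 and -0.28. The other synaptotagmins had 6 higher and 5 lower genes, led by the dim Syt14, Syt8 and Syt10 with 0.68, 0.48 and -0.46.

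The list of vesicle membrane and Rab genes had 14 higher and 13 lower genes and a median of 0.0027. Slc18a3, the vesicular acetylcholine transporter, Synpr (synaptoporin) and Slc17a6, the vesicular glutamate transporter of subcortical neurons, had the largest differences, with -0.38, -0.35 and -0.34. Synpr read 1.95, 2.14 and 2.11 in knockout, against 1.86, 1.94 and 3.45 in wild type, so that its difference rests on wild-type 3. The recycling list had 15 higher and 10 lower genes, led by Ston1 (stonin 1), Sh3gl3 (endophilin A3) and Ap2b1 (a subunit of the AP2 adaptor) with -0.97, -0.29 and 0.29. Ston1 was dim, with means of -6.14 in knockout and -5.17 in wild type. The list of calmodulin, further calmodulin-dependent kinases and calcineurin had 8 higher and 11 lower genes. Ppp1r1b (DARPP-32, a striatal phosphatase inhibitor that was also a striatum marker), Camk1g and Pcp4 had the largest differences there, with -0.73, 0.40 and -0.25.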

How the data were processed

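Total RNA from 6 brain samples was labelled with Cy3 and hybridised to 1-colour Agilent arrays, per the labels' protocols. Agilent Feature Extraction 12.1.1.1, protocol GE1_1200_Jun14, made the deposited intensity of each spot, which it background-subtracted and detrended, with surrogate values for very dim spots, per the file headers. Dim probes therefore depend on the background treatment.

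Control spots (1377) and spots marked as outliers were left out. The log2 of the processed signal was scaled to each array's 75th percentile, and spots of a probe were averaged. Probes entered the test if 1 group or both had them well above background throughout, with 2 or more values in each group (31954 probes). The brightest tested probe, called representative, stood for a gene. RefSeq accessions renamed or kept 29510 probes through the GRCm38.p6 table, and 2030 probes had no gene name. Genes (22578) and probes were compared with limma 3.58.1 in R 4.3.3, two-sided, with Benjamini-Hochberg adjustment and a threshold of 0.05. An exact test of 3 against 3 arrays cannot give a p under 0.1 and was not used. The fit was tested on simulated data.

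The members and lists were chosen with earlier results of these data known. Array by array values are given for members whose groups do not overlap, with an absolute difference of at least 0.3 or with probes of both signs, and for Snap25, Syt1, Syn1, Syp and Camk2a. Rab3a, Camk2d, Syt2, Vamp1 and the array values of list genes were added after their values were seen. Of each list at most the 3 genes with the largest difference are named, and Gad1, Gad2, Slc32a1, Sst, Npy, Zic1 and Calb1 were added after their values were seen.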

Additional observations from a re-analysis of the deposited data

How the results depend on the processing

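Under 17 other settings, which include leaving out each array, 0 of the members passed the adjusted test, and 0 of their probes did so under the settings that keep probes apart. Among all genes 0 passed in limma, except that 559 passed without knockout 1, which leaves 1 genotype on each slide. The median difference of the members was 0.17 after median centring (median of all genes then 0.10), -0.0072 with the slide as a fixed block and -0.0088 within the shared slide. It ranged from 0.014 to 0.078 when 1 array was left out. After median centring 38 of 40 members were higher, against 27 of 40 in the main scaling, and 29 of 40 lay above the median of all genes in both. At an unadjusted p under 0.05 there were 6 members after median centring, 2 with outlier spots kept and 2 over the mean of a gene's probes, where the shares over all genes were 16.83%, 12.52% and 12.65%. There were 0 when slide was a fixed block, where the share over all genes was 5.315%. That number ranged from 0 to 3 when 1 array was left out (0 without knockout 1, knockout 3 or wild-type 3, and 3 without wild-type 1), with shares over all genes of 7.214% to 17.01%. The groups did not overlap in 3 members under quantile normalization, 11 after median centring and 10 over the mean of a gene's probes, where the shares over all genes were 17.5%, 29.86% and 20.39%, in 16 within the shared slide, where 46.65% of all genes did so, and in 6 to 13 when 1 array was left out, with shares over all genes of 24.13% to 38.8%.

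The replicate numbers of the titles were not treated as pairs, since same-numbered arrays had deviations that correlated at -0.016, -0.135 and -0.118. With the replicate block 1 member had an unadjusted p under 0.05 in limma, where 10.7% of all genes had such a p, and 0 passed. The difference of Unc13c stayed between -0.74 and -0.41 over the 17 settings, with an adjusted p from 0.28 to 1.00. Of the 40 tested members, 13 had no change of sign under any of the settings. The number of arrays and the signal over background limit what can be seen for the dim probes of Syn3, Vamp2 and Sv2c.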
